A study of Homo sapiens with 58 samples.

Results

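HuR, the RNA-binding protein encoded by ELAVL1, was profiled by crosslinking and immunoprecipitation after proximity labelling from the nucleus or from the cytoplasm of unstressed Huh-7.5 cells, which derive from a hepatocellular carcinoma. The libraries described here are 8 of the 58 in the study: 4 from the APEX-NLS line and 4 from the APEX-NES line, all enriched and all mock treated. Their labels, and no measured value, define them. Both lines express APEX, a peroxidase that tags nearby proteins with biotin, directed to the nucleus by a nuclear localisation signal (NLS) or to the cytoplasm by a nuclear export signal (NES). For all 8 libraries, cells received 0.5 mM biotin phenol for 30 min and 1 mM hydrogen peroxide for 1 min. They were crosslinked at 254 nm with doses of 400 and 200 mJ/cm2. Their RNA passed both a streptavidin capture and a HuR immunoprecipitation with the 3A2 antibody. Input libraries of the same lines (2 per line; those of set JL1024 are described as All, which may mean pooled replicates) had the same labelling but no streptavidin capture. Nuclear and cytoplasmic fractions (3 libraries each) came from mock cells of wild-type genotype separated biochemically, labelled as without the APEX reaction, so they differ from the 8 libraries in line and labelling as well. The labels do not say whether each line is a clone, and whether replicates are separate cultures is not stated, so p-values measure the spread between these libraries, which may be technical. Replicates 1 and 2 belong to library set JL0388 and replicates 3 and 4 to set JL1024, as named in the sample descriptions.

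HuR binds U-rich and AU-rich stretches of RNA. It resides mostly in the nucleus, where it contacts introns of precursor mRNA, and it shuttles to the cytoplasm, where it is best known for binding the 3'UTR of mRNAs and stabilising them. Introns are removed in the nucleus, so tags in introns that are spliced out mark unspliced or excised RNA, while 3'UTR tags can come from either compartment. The intron class used here also holds peaks labelled as retained introns, of coding sequence or of non-coding RNA. Retained introns were the smaller part of the class in every enriched library. The intron class therefore cannot be read as unspliced or excised RNA alone, and its parts were not tested separately.

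The NES libraries were far shallower than the NLS libraries. In such bulk libraries fewer labelled cells and less HuR-bound RNA per cell cannot be told apart. The NLS libraries held 33057, 20609, 34803 and 28325 tags in peaks, and the NES libraries 2981, 4589, 5011 and 4400. Per library total, 1 tag was worth 1.89 to 6.83 CPM (tags per 1000000 of the library total) in NLS and 8.74 to 26.4 CPM in NES. Peaks held 14.1% and 16.3% of the total in the NLS libraries of set JL0388 and 7.88% and 9.12% in the NES libraries of that set, against 5.93% and 6.58% for NLS and 4.17% and 4.38% for NES in set JL1024. NLS replicates 1 and 2 agree within sampling noise (chi-square per degree of freedom 1.05 over 898 features with at least 10 tags in the pair). NLS replicates 3 and 4 gave 1.89 over 696 features, and the NES pairs 1.61 and 4.09 over only 31 and 61 features. NLS replicates 1 and 2 were therefore counted as 1 sample in means ± SD, and an NLS mean ± SD has n = 3. Hepatocyte and hepatoma markers were present (6 of 9 with a tag, APOA2 at 0), summing to 107 to 291 CPM in NLS and 61.2 to 318 CPM in NES. The endothelial markers in the table, PECAM1 and VWF, were at 0 in all 8 libraries, and fibroblast and leukocyte markers summed to at most 4.93 CPM.

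Intron tags made up a larger part of the intron plus 3'UTR tags in the NLS libraries than in the NES libraries. The intron part was 83.6%, 83.6%, 75.6% and 73.2% in NLS replicates 1 to 4, and 47.7%, 46.6%, 66.3% and 62.8% in NES replicates 1 to 4. Every NLS library lay above every NES library, overall and within each library set. Means were 77.5% ± 5.46 (SD, n = 3) for NLS and 55.9% ± 10.2 (SD, n = 4) for NES, and with all 4 NLS libraries kept the difference was 23.1 percentage points. The two-sided exact permutation test gave p = 0.0286, the smallest that 4 against 4 libraries can give, and 0.314 after Benjamini-Hochberg adjustment over the 11 share measures compared, so the difference did not pass the correction. With NLS replicates 1 and 2 counted once, p was 0.0571, the smallest that 3 against 4 allows. The gap was 36.5 points in set JL0388 and 9.81 points in set JL1024.

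The input libraries of both lines had nearly equal intron parts. NLS input held 73.7% in set JL0388 and 70.004% in set JL1024, and NES input 74.2% and 68.9%, differences of -0.517 and 1.08 points with 1 library per line and set and thus no test. In the fractions the intron part was 82.1% ± 0.768 (SD, n = 3) in the nucleus and 41.9% ± 5.65 (SD, n = 3) in the cytoplasm, a gap of 40.2 points, for which the exact test gave 0.1, its lower limit with 3 libraries a side. The fractions form a library set of their own, JL0380, so levels set beside the enriched libraries also differ by set.

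**Figure D1:**
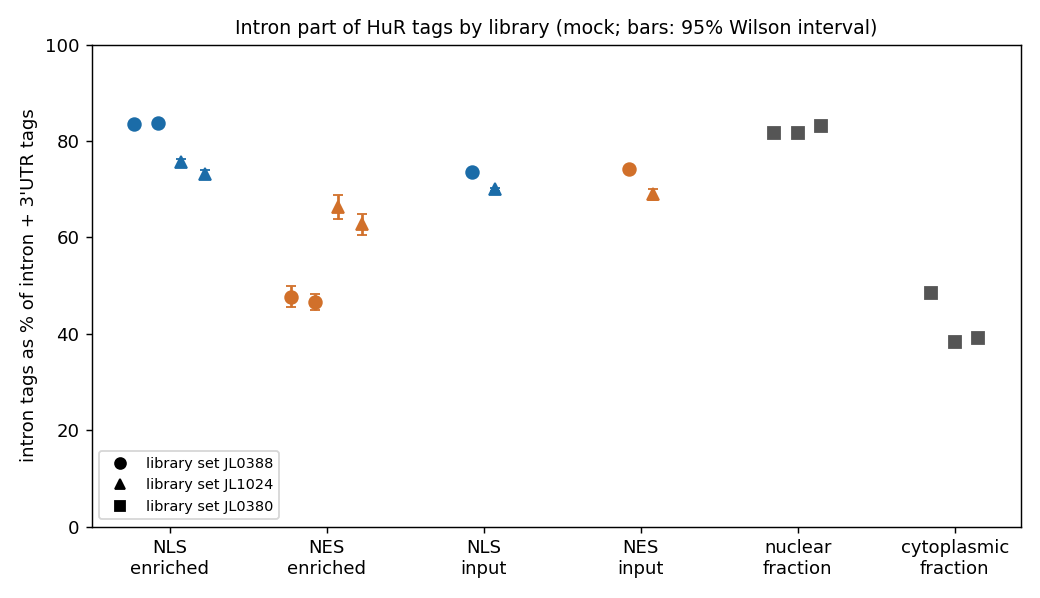
Intron tags as a percentage of intron plus 3'UTR tags (y axis) for each mock library, grouped by line, capture step or fraction (x axis); points are libraries, shapes are library sets and bars are 95% Wilson intervals, which cover counting error only. The 4 NLS enriched libraries lie between 73.2% and 83.6%, all above the NES enriched libraries at 46.6% to 66.3%, while the inputs of both lines lie between 68.9% and 74.2%.

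Shares of all tags in peaks were less clearly separated than the intron part. The 3'UTR share was 10.6%, 10.3%, 8.35% and 10.6% in NLS and 34.7%, 36.7%, 8.94% and 16.1% in NES, so NES replicate 3 lay within the NLS range (difference -14.2 points, exact permutation p = 0.114, adjusted 0.314). The intron share was 53.6%, 52.7%, 25.8% and 28.9% in NLS and 31.7%, 32.0%, 17.6% and 27.2% in NES (difference 13.2 points, exact permutation p = 0.257, adjusted 0.566). The intron share was lower in set JL1024 than in set JL0388 in both lines. In set JL1024 more tags lay in structural RNA: snoRNA held 5.12% to 5.31% of NLS tags and 3.16% to 7.64% of NES tags there, against 0.175% to 0.501% in set JL0388. The snoRNA share did not separate the lines (difference -0.165 points, exact permutation p = 0.886). The intron part leaves these classes out of its denominator.

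Single genes were compared as features, the summed tags of a gene's peaks in 1 annotation class. Of 2871 features tested with limma, 15 (0.522%) were called at an adjusted p under 0.05, all 15 higher in NLS, and 0 were called lower. Of the 15, 13 were introns and 2 were non-coding RNAs. Their log2 differences ran from 2.17 to 2.77 (SE 0.478 to 0.585), with limma adjusted p-values of 0.0338 to 0.0496. These calls lay close to the threshold: with NLS replicates 1 and 2 counted once 0 features were called (smallest adjusted p 0.0586; 692 at an unadjusted p under 0.05), and 0 without any single NLS library or without NES replicate 1. Within set JL0388 alone limma called 619 features (21.6%), 592 higher (20.6%) and 27 lower (0.94%), and within set JL1024 alone 205 (7.14%), all higher, each from 2 libraries per line. The fit within set JL0388 takes NLS replicates 1 and 2 as separate samples. Its count rests on the small spread of that pair and may be too high. A second limit is the depth of NES, since 494 of the 2871 features (17.2%) had no tag in any NES library and passed the filter through NLS alone. The median log2 difference over all features was 0.55, 0.21 when scaled to tags in peaks and -0.04 when each library was centred on its median, so differences are best read against that shift. With libraries so centred limma called 0 features (smallest adjusted p 0.626).

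GPC3, which encodes the cell-surface proteoglycan glypican 3 that hepatocellular carcinoma cells often express, had the most intron tags of the called introns. GPC3 lies on chromosome X at 133535745 to 133985594 (GRCh38.p14, RefSeq), and its introns held 409, 212, 90.8 and 69.1 CPM in NLS and 52.9, 0, 26.2 and 18.96 CPM in NES. All 4 NLS libraries were higher than all 4 NES libraries. The log2 difference was 2.66 (SE 0.59, limma adjusted p = 0.0338), 3.80 within set JL0388 and 1.53 within set JL1024. In the inputs the GPC3 intron difference was 0.08 on the log2 scale.

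ZZZ3, which encodes a zinc-finger subunit of a histone acetyltransferase complex, showed the largest fitted difference. The gene lies on chromosome 1 at 77562416 to 77683398, and its introns held 98.5, 95.7, 24.6 and 14.7 CPM in NLS and 0 CPM in all 4 NES libraries. Its fitted log2 difference of 2.77 depends on the pseudocount and is no bound. ADGRG6 (an adhesion G-protein-coupled receptor), ROBO1 (a receptor of Slit guidance cues) and NKTR (a cyclophilin-related protein) were also at 0 in all NES libraries, with NLS introns of 11.3 to 88.8 CPM, 15.1 to 88.8 CPM and 12.6 to 95.7 CPM. NHSL1 and ST3GAL6 (a sialyltransferase) were at 0 in NES as well, with NLS introns of 14.7 to 82.0 CPM and 13.2 to 69.0 CPM. With 3 tags per library as the least that NES could show, and NLS replicates 1 and 2 counted once, the NLS mean of each of these 6 introns lay below the NES floor, so no fold can be given at this depth. In each of these 6 genes the NLS libraries of set JL0388 were higher than those of set JL1024.

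Other called introns had some NES tags. DOCK4, an activator of Rac GTPases, held 83.8, 116, 30.3 and 18.8 CPM in NLS and 8.74 CPM in NES replicate 3, with 0 in the other NES libraries. CHKA, the choline kinase that starts phosphatidylcholine synthesis, held 163, 150, 41.6 and 35.6 CPM in NLS and 0, 19.9, 8.74 and 9.48 CPM in NES. THRB, a thyroid hormone receptor, held 251, 219, 66.2 and 62.8 CPM in NLS and 26.4, 59.6, 8.74 and 9.48 CPM in NES, and its difference was alike in both sets (2.33 and 2.10 on the log2 scale). The groups did not overlap for DOCK4, CHKA or THRB.

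CNTNAP2, a neurexin-family adhesion protein, held 217, 185, 30.3 and 37.7 CPM in NLS introns and 26.4, 19.9, 0 and 9.48 CPM in NES. SRSF11, a splicing factor of the SR family, held 148, 95.7, 26.5 and 29.3 CPM in NLS introns and 0, 19.9, 0 and 9.48 CPM in NES. ARL15, an ARF-like GTPase, held 143, 116, 17.0 and 29.3 CPM in NLS introns and 39.7 CPM in NES replicate 2, with 0 in the other NES libraries. ARL15 overlapped between lines, because NES replicate 2 lay above both NLS libraries of set JL1024.

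The called non-coding RNAs were NIHCOLE, a long non-coding RNA described in hepatocellular carcinoma, and CALCRL-AS1, a transcript antisense to CALCRL. NIHCOLE held 360, 314, 37.8 and 46.1 CPM in NLS and 106, 59.6, 0 and 0 CPM in NES. CALCRL-AS1 held 350, 308, 75.7 and 96.3 CPM in NLS and 52.9, 179, 0 and 18.96 CPM in NES. Both overlapped between lines when sets were pooled and did not overlap within either set. The deposited peaks carry a strand, but whether gene names were assigned by strand is not given in the sources used here. The strands of these peaks were not compared with those of the genes, so some tags of CALCRL-AS1 may belong to its partner.

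Of the 15 called features, 12 had groups that did not overlap, but 6 of those had no NES tag, so that the filter itself required a tag in every NLS library and thus fixed the separation. Of the 15, 14 were called nuclear in the fraction comparison, the exception being ST3GAL6 introns (log2 0.35, limma adjusted p = 0.21). That call was common, at 1301 of the 2863 features tested in both comparisons (45.4%) and 1084 of 1708 tested introns (63.5%), and 13 of the 15 are introns. Over all tested features, 514 (17.9%) did not overlap and were higher in NLS, and 8 (0.279%) did not overlap and were lower. The filter fixed that order for the 494 features without an NES tag; among the 2377 with tags in both lines 20 (0.841%) did not overlap and were higher, and the same 8 (0.337%) were lower. In the inputs the 15 differed between lines by -0.71 to 0.52 on the log2 scale (median -0.08; all features 0.04). The called introns belong to long genes with many tags: median RefSeq gene length was 271 kb for the 13 called and 124 kb for all tested introns, and median tags over the 8 libraries were 60 and 14. The part that tag number plays in which introns were called was not tested.

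**Figure D2:**
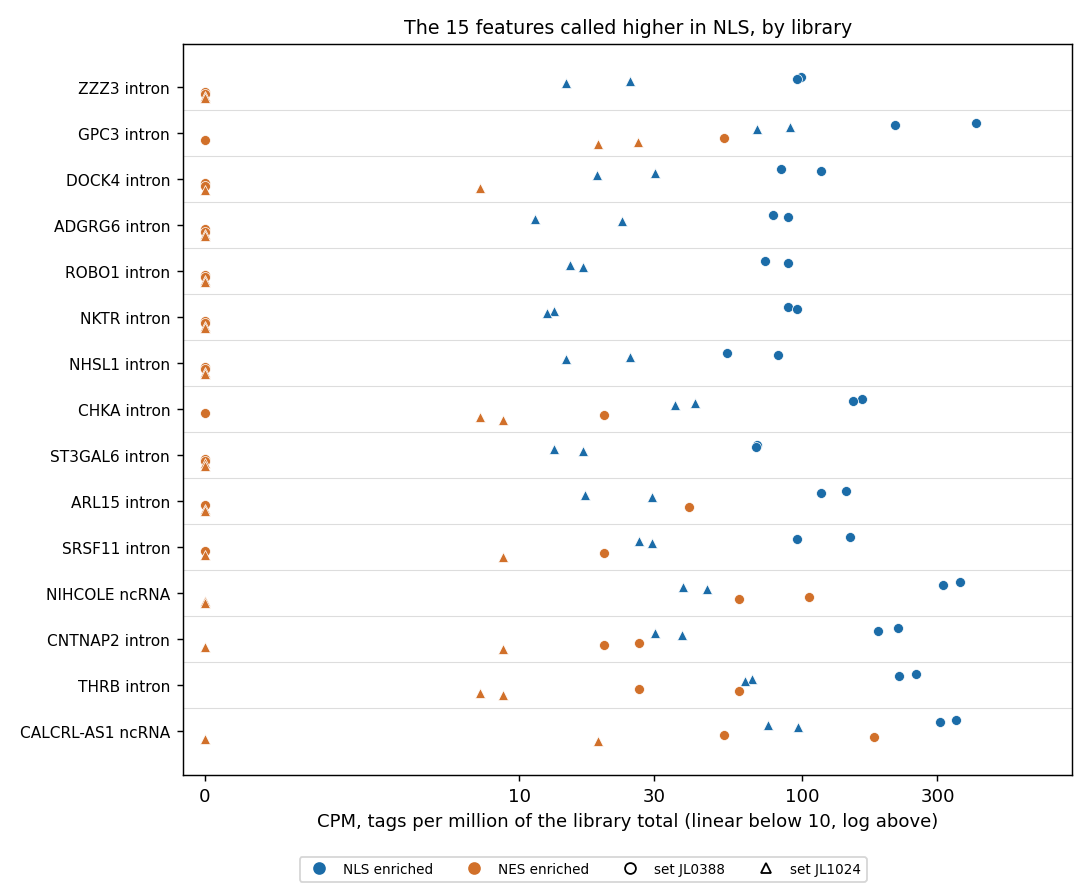
CPM in each library (x axis, linear below 10 and logarithmic above) for the 15 features called higher in NLS (y axis); blue points are NLS, orange points NES, circles set JL0388 and triangles set JL1024. NES points lie at 0 for 6 introns, and the NLS circles lie to the right of the NLS triangles for all 15 features.

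On the lower side no feature passed limma's adjusted threshold with library totals, and 32 had an unadjusted p under 0.05. Scaled to tags in peaks, which lowers the median over all features to 0.21, limma called 8 lower (0.279%), among them the 3'UTRs of ACTB, GPC3, CANX, RAB21 and ARPC4, and 322 higher (11.2%). With library totals edgeR's quasi-likelihood test on the recovered tags called 4 lower in NLS (0.139%), all of them 3'UTRs, and 10 higher (0.348%). A further fit of the recovered tags, voom, called 29 lower and 24 higher of 2871, with a median log2 difference of -0.27. The 10 lower features with the smallest unadjusted p were all 3'UTRs, and the 8 whose groups did not overlap, among them those of ARPC4, C6orf62, CANX and RAB21, were 3'UTRs too.

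ACTB, which encodes cytoplasmic beta-actin, lies on chromosome 7 at 5527148 to 5530601 and is a reported HuR target; it held 49.3, 6.83, 117 and 155 CPM of 3'UTR signal in NLS and 238, 536, 96.2 and 209 CPM in NES. Its NES libraries were above NLS in set JL0388, and overlapped with NLS in set JL1024. The log2 difference was -1.87 (SE 0.59, limma adjusted p = 0.0505; 0.039 scaled to tags in peaks), -3.66 within set JL0388 and -0.07 within set JL1024. In the fractions the ACTB 3'UTR was called cytoplasmic (log2 nuclear minus cytoplasmic -3.20, limma adjusted p = 2.7e-09).

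CANX, the endoplasmic reticulum chaperone calnexin, was the steadiest of these across sets. Its 3'UTR held 19.7, 27.3, 22.7 and 20.9 CPM in NLS and 52.9, 79.5, 52.5 and 75.8 CPM in NES. The groups did not overlap, and the log2 difference was -1.23 within set JL0388 and -1.26 within set JL1024, although the pooled value did not pass with library totals (-1.24, SE 0.49, limma adjusted p = 0.0705) and passed scaled to tags in peaks (-1.72, limma adjusted p = 0.0256). RAB21, an endosomal GTPase, held 3.78 to 6.83 CPM in NLS and 9.48 to 52.9 CPM in NES, and ARPC4, a subunit of the actin-nucleating Arp2/3 complex, 0 to 7.57 CPM in NLS and 9.48 to 39.7 CPM in NES. With library totals neither passed limma (adjusted p = 0.0703 and 0.0537), scaled to tags in peaks both did (limma adjusted p = 0.0403 and 0.0428), and each rested on 1 to 4 tags per NES library.

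Of the 3'UTRs that edgeR called, SUMO2, a ubiquitin-like modifier, held 4.93, 0, 17.0 and 12.6 CPM in NLS and 0, 139, 61.2 and 47.4 CPM in NES (edgeR log2 -2.42, edgeR adjusted p = 0.0328). ZNF451, a SUMO ligase, held 1 tag in all NLS libraries together and 26.4, 19.9, 35.0 and 0 CPM in NES (edgeR log2 -3.91, edgeR adjusted p = 0.0341). MIER1, a chromatin regulator, rested on 1 library: NES replicate 4 held 104 CPM and the other 3 NES libraries 0, 0 and 8.74 CPM, and its difference within set JL0388 was 0.35 on the log2 scale. C6orf62, INSR (the insulin receptor) and SEPTIN11 (a septin cytoskeleton subunit) did not pass either test, with limma log2 values of -1.72, -1.43 and -1.52. C6orf62 was -2.85 in set JL0388, -0.60 in set JL1024 and -1.09 without NES replicate 1; SEPTIN11 was -2.55 and -0.50 in the sets and -0.88 without NLS replicate 1; INSR was -1.98 and -0.89 in the sets.

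**Figure D3:**
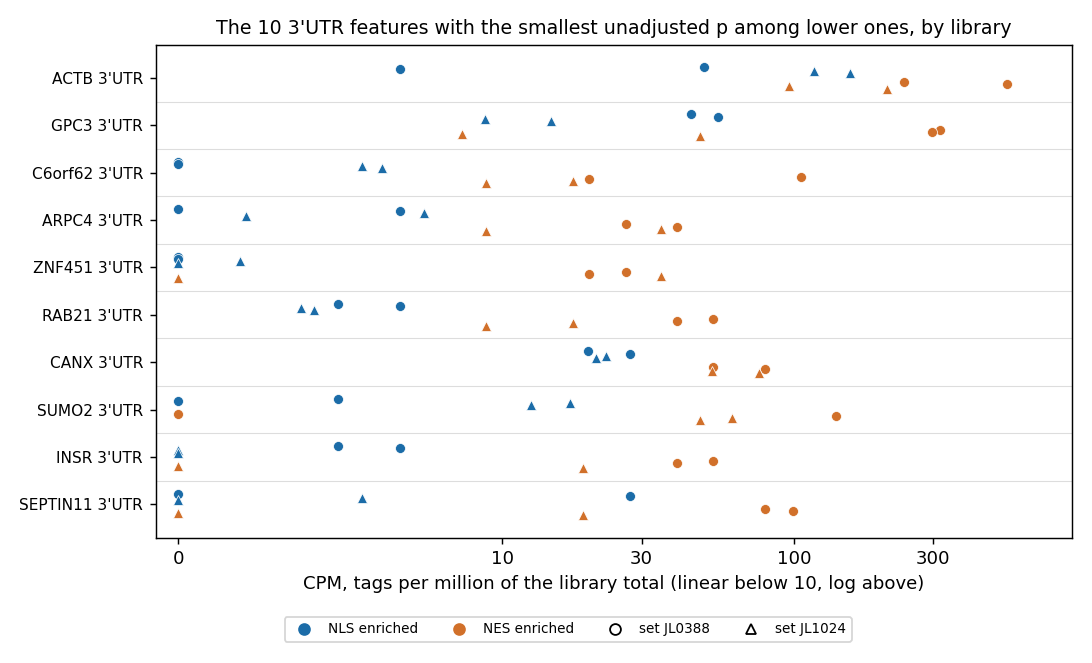
CPM in each library (x axis, linear below 10 and logarithmic above) for the 10 3'UTR features with the smallest unadjusted p among those lower in NLS (y axis), none of which passed limma's adjusted threshold with library totals; colours and shapes give line and library set. CANX, RAB21, ARPC4 and C6orf62 show no overlap between lines, and the ACTB triangles of both lines overlap.

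Introns and the 3'UTR of the same gene could be compared directly, since both share the gene's expression in a library. GPC3 carried both kinds: its 3'UTR held 44.3, 54.7, 9.46 and 14.7 CPM in NLS and 317, 298, 8.74 and 47.4 CPM in NES, so that its introns were called higher in NLS by limma and edgeR and its 3'UTR lower by edgeR, and by limma only when scaled to tags in peaks (3'UTR limma log2 -1.54, SE 0.53, adjusted p = 0.0505; limma scaled to tags in peaks log2 -2.04, adjusted p = 0.0351; edgeR log2 -2.11, edgeR adjusted p = 0.0326). The intron part of GPC3 was 90.2%, 79.5%, 90.6% and 82.5% in NLS and 14.3%, 0%, 75.0% and 28.6% in NES. NES replicate 3 rested on 3 intron tags and 1 3'UTR tag (95% Wilson interval 30.1% to 95.4%), and NES replicate 2 on 0 of 15. In the inputs the GPC3 intron part was 68.5% and 71.2% for NLS and 63.6% and 87.5% for NES, the last from 16 tags.

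The same ordering held in most genes with both features. Of 319 genes whose introns and 3'UTR were both tested, the intron difference exceeded the 3'UTR difference in 287 (90.0%), with a median gap of 1.00 on the log2 scale. It did so in 289 genes (90.6%) within set JL0388 and 206 (64.6%) within set JL1024, and in 188 genes in both sets, against 10 genes with the opposite order in both. In 160 genes the intron difference was positive and the 3'UTR difference negative, and in 3 genes the reverse. These counts describe the genes that passed the filter and are not independent of one another or of the intron part. Among the 254 of them with intron and 3'UTR tags in both lines, the intron part from pooled tags was higher in NLS in 220 (86.6%). Summed over the 319 genes, the intron part was 79.5%, 78.5%, 69.0% and 67.4% in NLS and 36.6%, 39.0%, 53.8% and 57.8% in NES. The nuclear minus cytoplasmic difference was larger for introns than for the 3'UTR in 316 of the 319.

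AFP, the fetal plasma protein alpha-fetoprotein made by hepatoma cells, followed that order. Its introns held 69.0, 54.7, 20.8 and 37.7 CPM in NLS and 0, 0, 8.74 and 18.96 CPM in NES, without overlap (log2 1.97, SE 0.58, limma adjusted p = 0.0505), while its 3'UTR overlapped (log2 -0.24, limma adjusted p = 0.819; 0.53 within set JL1024). For DDX17, an RNA helicase, the intron difference was 1.46 (limma adjusted p = 0.0524) and the 3'UTR difference 0.28 (limma adjusted p = 0.768; -0.25 scaled to tags in peaks).

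**Figure D4:**
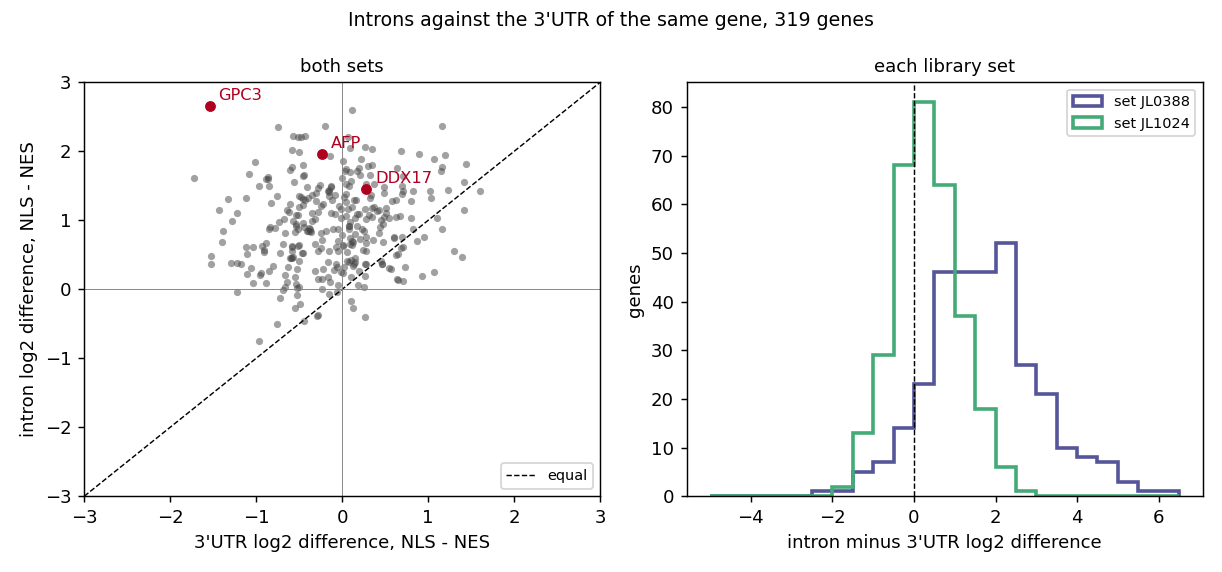
Left, log2 NLS minus NES difference of introns (y axis) against that of the 3'UTR (x axis) for 319 genes, with the dashed line marking equal values; right, number of genes (y axis) by the intron minus 3'UTR difference (x axis) in each library set. Of the genes, 287 lie above the dashed line, and the median gap was 1.78 in set JL0388 and 0.30 in set JL1024.

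By class, 1572 of 1708 tested introns (92.0%) had a positive difference (median 0.78) and 281 of 696 3'UTRs (40.4%) did (median -0.17), beside 78.0% and 0.55 over all tested features. The filter fixed a positive difference for the 377 introns and 28 3'UTRs at 0 in all NES libraries. Among features with tags in both lines, 1195 of 1331 introns (89.8%, median 0.63) and 253 of 668 3'UTRs (37.9%, median -0.21) were positive, beside 73.4% and 0.37 over all 2377. The 3'UTR median turned with the library set, at -0.48 within set JL0388 and 0.17 within set JL1024, while the intron medians were 1.22 and 0.43. The fraction comparison called 6097 of 21245 features (28.7%), 2705 nuclear and 3392 cytoplasmic, with limma. Of the tested features called nuclear there, 912 of 1301 (70.1%) lay above the all-feature median of the line difference, and of those called cytoplasmic 62 of 679 (9.13%). Without the features at 0 in all NES libraries these were 797 of 1059 (75.3%) and 66 of 657 (10.05%), against the median of 0.37. Within set JL1024, over all tested features, the shares were 62.03% and 35.5%.

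Long non-coding RNAs listed as nuclear-retained, by name and not by their fraction values, had a positive difference in 6 of 6 tested members. Of all features 78.0% were positive, and of the non-coding RNA class 83.8%, where the filter fixed the sign of 50 of 290. Of the 6 listed RNAs 0 were called (background 0.522%). Their median log2 difference was 1.48, beside 0.55 over all features and 0.61 over the non-coding RNA class. It was 1.84 within set JL0388, 0.56 within set JL1024 and 0.88 scaled to tags in peaks. MALAT1, which resides in nuclear speckles and lies on chromosome 11 at 65497738 to 65506516, held 1306, 1155, 479 and 473 CPM in NLS and 582, 695, 140 and 275 CPM in NES, with no overlap within either set (log2 1.09, SE 0.37, limma adjusted p = 0.0505; 0.94 and 1.24 in the sets; 0.41 scaled to tags in peaks). NEAT1, the scaffold of paraspeckles, held 158, 205, 32.2 and 25.1 CPM in NLS and 79.3, 0, 43.7 and 9.48 CPM in NES, and overlapped in set JL1024 (log2 1.57, SE 0.64, limma adjusted p = 0.0862; 0.61 without NES replicate 2 and 2.14 without NES replicate 3). FTX and KCNQ1OT1, an imprinted RNA that silences neighbouring genes, differed by 1.51 and 1.70 (limma adjusted p = 0.0505 for both). Within sets JL0388 and JL1024 FTX was 1.31 and 1.71, and KCNQ1OT1 2.82 and 0.58. Of the long non-coding RNAs listed as cytoplasmic, again by name and not by their fraction values, NORAD, which binds Pumilio proteins, differed by -0.23 (0.05 with edgeR) and did not pass. CYTOR held 12 tags in NLS and 0 in NES, which fixed its sign and gives no fold at this depth, and it did not pass either.

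Reported HuR target mRNAs had 14 tested features and 0 calls (0.522% over all features). Their 3'UTRs were positive in 1 of 9 (median -0.40, beside 40.4% and -0.17 for all 3'UTRs; -0.93 within set JL0388, -0.04 within set JL1024 and -0.92 scaled to tags in peaks) and their introns in 4 of 4 (median 0.78, as for all introns). CTNNB1, which encodes beta-catenin, held 31.4 to 73.9 CPM of 3'UTR signal in NLS and 26.2 to 258 CPM in NES (log2 -0.40, limma adjusted p = 0.653). Genes of hepatocyte plasma proteins had 16 tested features and 0 calls, beside the same 0.522%. Their introns were positive in 6 of 7, beside 92.0% of all introns (median 1.46; 0.71 within set JL1024), and their 3'UTRs in 1 of 5, beside 40.4% (median -0.29, which was -0.91 within set JL0388 and 0.47 within set JL1024). FN1 introns, of the matrix protein fibronectin, differed by 1.60 (limma adjusted p = 0.0505).

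Splicing factor genes of the HNRNP and SRSF families had 32 tested features, of which 1, SRSF11 introns, was called (0.522% over all features); introns were positive in 9 of 10 (median 0.89), beside 92.0% of all tested introns, and 3'UTRs in 10 of 20 (median 0.07, which was -0.62 within set JL0388, 0.33 within set JL1024 and -0.09 scaled to tags in peaks). Nuclear body and splicing-machinery genes had 21 tested features, among them SRSF11 again as the 1 call beside that 0.522%, with introns positive in 8 of 10 (median 0.83) and 3'UTRs in 8 of 11 (median 0.28, which was 0.04 scaled to tags in peaks). Of 18 translation factor features 12 were positive, beside 78.0% of all features (median 0.27, which was -0.17 scaled to tags in peaks). EIF4G3 introns, of a translation scaffold protein, differed by 1.81 (limma adjusted p = 0.0505). Both endoplasmic reticulum chaperone 3'UTRs tested, CANX and PDIA4, were negative, as were 415 of all 696 tested 3'UTRs, with PDIA4 at 0.39 within set JL1024.

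The snoRNA share of tags in peaks varied with the library set, from 0.175% to 0.501% in set JL0388 and from 3.16% to 7.64% in set JL1024. By line its means were 2.75% in NLS and 2.92% in NES, and the set effect was not tested. The 40 tested snoRNA, scaRNA and snRNA features had a median of 0.39, beside 0.55 over all features, but 0.42 beside 0.33 within set JL1024, and 0 were called (0.522% over all features). SNORD3A, the U3 snoRNA of ribosomal RNA processing, held 29.6, 20.5, 450 and 371 CPM in NLS and 26.4, 59.6, 490 and 161 CPM in NES, so both lines were higher in set JL1024 (log2 NLS minus NES -0.02, limma adjusted p = 0.983; 0.12 with edgeR). SNORD3A has near-identical copies, and how tags were shared among them is not given in the sources used here. SNHG1 and GAS5, hosts of snoRNAs, were likewise highest in set JL1024 and differed between lines by 0.88 and 1.01, which did not pass (limma adjusted p = 0.151 and 0.123). The 8 snoRNA host RNAs tested had a median of 0.68 (0.25 scaled to tags in peaks, 0.45 within set JL0388 and 0.98 within set JL1024). The 17 features of cytosolic ribosomal protein genes, mostly snoRNAs in their introns, had a median of 0.28 (-0.05 scaled to tags in peaks).

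Mitochondrially encoded RNAs, which lie outside both labelled compartments, were positive in 12 of 17 tested features, beside 78.0% of all features (median 0.37; 0.00 within set JL0388 and 0.71 within set JL1024), with 0 called beside 0.522% overall. MT-RNR2, a mitochondrial ribosomal RNA, held 78.8, 212, 471 and 394 CPM in NLS and 185, 39.7, 219 and 152 CPM in NES (log2 0.87, limma adjusted p = 0.23). MT-TF, a mitochondrial transfer RNA, did not overlap between lines (37.7 to 88.8 CPM in NLS, 0 to 26.4 CPM in NES; log2 1.96, limma adjusted p = 0.0505). HuR's own ELAVL1 3'UTR held 6 tags in NLS and 2 in NES, and G3BP1, a stress-granule protein, 15 and 10; neither passed (log2 0.12 and -0.85; ELAVL1 was -0.42 with edgeR and G3BP1 0.38 within set JL1024).

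The remaining high-signal features were LINC02476, CCDC200 and the introns of ARHGAP5. LINC02476 held 1399, 991, 221 and 193 CPM in NLS and 291, 338, 78.7 and 152 CPM in NES (log2 1.38, limma adjusted p = 0.0505). ARHGAP5 introns held 951, 752, 115 and 155 CPM in NLS and 185, 278, 69.95 and 66.4 CPM in NES (log2 1.38, limma adjusted p = 0.0505). Both were separated within each set and overlapped when sets were pooled. CCDC200 differed by -0.03, and by 0.43 with edgeR.

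Whether line differences differed between sets or between enriched and input libraries was also tested for all 2871 features. For the set interaction limma called 0 features (0%; 583 at an unadjusted p under 0.05; edgeR 0), but 180 without NLS replicate 1 and 205 without NLS replicate 2. For the interaction of line with capture limma called 0 (0%; 239 at an unadjusted p under 0.05) and edgeR 0. So no single feature's line difference was shown to differ between enriched and input libraries.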

How the data were processed

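The authors deposited 1 table of signal per peak and library; 1 value is a whole number of tags divided by the library total, since 100% of values came out whole within 0.01 tag. Per the submitters' processing notes, GRCh38.p14, Bowtie2, SAMtools, bedtools and HOMER were used; duplicate removal is not given in the sources used here. Of 395471 lines 8257 repeats were dropped, leaving 387214 peaks (84358 without a gene name, kept for class shares only), each with end minus start of 20; whether coordinates count from 0 or 1 is not given in the sources used here. Peaks were summed per gene and class into 30217 features, with peaks labelled as retained introns counted as introns. limma 3.58.1 (trend, library set as covariate) tested log2(CPM + 7.79) for features non-zero in at least 4 of 8 libraries, two-sided, with Benjamini-Hochberg adjustment at 0.05. The pseudocount draws differences between low CPM values towards 0. Positive differences are not thereby conservative, since 494 features passed the filter through NLS alone and 0 through NES alone. The median over all features was 0.55 here, 0.37 with NLS thinned to NES depth, -0.11 with DESeq2 and -0.27 with voom. edgeR 4.0.16 and DESeq2 1.42.0 on recovered tags were alternatives (R 4.3.3). Shares were compared by exact permutation tests (Python 3.11.15, scipy 1.17.1). Scripts were tested on simulated data. Intervals, floors (3 tags) and counts cover counting error only.

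Named features are up to 10 called per direction, filled to 10 by smallest unadjusted p, the 5 with the highest mean CPM, ELAVL1, G3BP1, MALAT1, NEAT1 and ACTB, and up to 4 of each gene list; other called features were added. The libraries, genes and lists were chosen with earlier results of these data known. Same-numbered libraries correlated by 0.0127 and 0.0333 after set and group means, so numbers did not pair libraries beyond the set. Peak sequences were not used here. Some features are not reported here.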

Additional observations from a re-analysis of the deposited data

Results flagged for a closer look

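In 168 groups of 4 libraries, 14 had 1 library far from the other 3. The rule used flags about 1 in 20 groups by chance when values are normally distributed. A group in which only 1 library holds tags is always flagged, so that rate does not apply to these sparse counts. The 3'UTR share of NLS replicate 3 (8.35%) lay below the other NLS libraries, and the G3BP1 3'UTR of NLS replicate 1 (34.5 CPM) and the ZNF451 3'UTR of NLS replicate 3 (1.89 CPM) lay above. Among the NES libraries, replicate 1 stood above the rest for the C6orf62 3'UTR (106 CPM) and RBM39 introns (106 CPM). NES replicate 2 stood above for ARL15 introns (39.7 CPM), the ELAVL1 3'UTR (39.7 CPM), FN1 introns (19.9 CPM) and the CTNNB1 3'UTR (258 CPM). NES replicate 3 stood above for DOCK4 introns (8.74 CPM) and NCL snoRNA (69.95 CPM), and NES replicate 4 for the MIER1 3'UTR (104 CPM), KCNQ1OT1 (9.48 CPM) and RPL13A snoRNA (56.9 CPM). Several of these are single tags: 1 tag is worth 19.9 CPM in NES replicate 2, 8.74 CPM in NES replicate 3 and 9.48 CPM in NES replicate 4.

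For 3 features the lines differed in opposite directions in the library sets with no overlap in either. On the log2 scale NORAD was -1.21 in set JL0388 and 0.75 in set JL1024, MT-TQ -1.78 and 1.18, and the EIF2S3 3'UTR -2.33 and 0.98. In limma's test of the set interaction over all features none passed (adjusted p = 0.26, 0.189 and 0.186).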

How the results depend on the processing

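The count of 15 called features varied with almost every choice. It was 588 and 26 with a pseudocount 4 times smaller and larger, 15 without the filter (8 of them shared) and 2 when a feature had to be non-zero in at least 6 of 8 libraries. It was 330 scaled to tags in peaks (322 higher, 8 lower), 362 with edgeR and TMM, 14 with edgeR and library totals, 53 with voom (24 higher, 29 lower), 82 with array weights, 515 over gene totals, and 619 and 205 within sets JL0388 and JL1024. It was 0 with centred libraries (200 at an unadjusted p under 0.05), DESeq2 (156), single peaks (124 of 928), no library set (595) and NLS replicates 1 and 2 counted once (692). With the replicate block it was 29 (28 higher, 1 lower), and the block changed no other direction. Leaving out 1 library gave 0 to 97: 32, 39 and 97 without NES replicates 2, 3 and 4, and 0 without each of the others. Chosen after seeing the data, thinning NLS to NES depth gave 0 of 996 (159 at an unadjusted p under 0.05), and edgeR within sets 33 and 0 (99). The set interaction gave 0 to 205 without 1 library, the capture interaction 0 throughout and the fraction comparison 3840 to 5637. The 9 called features with NES tags kept their sign in all 16 alternatives run on single features, and the filter fixed the sign of the other 6; over the 15, these gave log2 differences of 1.12 to 6.14 and adjusted p of 0.0052 to 0.179.

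The intron part difference kept its direction throughout, and leaving out 1 library gave 20.04 to 26.6 points. Its p passed 0.05 in fewer designs: 23.1 points gave 0.0556 when permuted within sets and 0.125 in the replicate block sign-flip test, each the smallest possible, and 21.6 points with NLS replicates 1 and 2 counted once, 36.5 and 9.81 points within sets could not reach 0.05. The 3'UTR share difference was -19.0 points over peaks with a gene name (exact permutation p = 0.0286) and -19.2 to -9.96 without 1 library; the intron share difference was 8.70 to 18.0. Per library total, share differences turned to 0.015 points for 5'UTR, 0.016 for CDS, 0.023 for downstream 10K, 0.0494 for snoRNA and 0.49 for unannotated. Within set JL1024 they turned to 0.086 for CDS and -0.29 for TE, and snoRNA was 0.66 with NLS replicates 1 and 2 counted once. Other reversals were all in features that did not pass limma's threshold, and their cause was not tested. The log2 differences below are NLS minus NES. With the larger pseudocount they were 0.10 for CCDC200, -0.0475 for ELAVL1 3'UTR, 0.053 for SNORD3A snoRNA. With edgeR they were 0.43 for CCDC200, -0.42 for ELAVL1 3'UTR, 0.047 for NORAD, 0.12 for SNORD3A snoRNA, 0.037 for SNORD3C snoRNA, 0.13 for MT-TQ. With NLS replicates 1 and 2 counted once they were 0.26 for CCDC200, 0.0395 for NORAD, 0.094 for SNORD3A snoRNA, 0.0096 for SNORD3C snoRNA, 0.014 for SNORD3B-2 snoRNA, 0.043 for MT-TQ. Within set JL1024 they were 0.89 for CCDC200, 0.38 for G3BP1 3'UTR, 0.75 for NORAD, 0.52 for SNORD3A snoRNA, 0.53 for SNORD3C snoRNA, 0.41 for SNORD3B-2 snoRNA, 1.18 for MT-TQ, 0.98 for EIF2S3 3'UTR, 0.10 for HNRNPU 3'UTR, 0.53 for AFP 3'UTR, 0.51 for NCL 3'UTR, 0.34 for SFPQ 3'UTR, -0.11 for DDX17 3'UTR, 0.39 for PDIA4 3'UTR. Scaled to tags in peaks they were -0.029 for ELAVL1 3'UTR, -0.16 for SNORD3B-1 snoRNA, -0.016 for MT-RNR1, -0.18 for RPS12 snoRNA, -0.43 for RPL7A snoRNA, -0.22 for EIF5AL1 3'UTR, -0.25 for DDX17 3'UTR. Within set JL0388 they were -0.22 for ELAVL1 3'UTR, 0.35 for MIER1 3'UTR, -0.13 for SNORD3B-1 snoRNA, -0.56 for RPL7A snoRNA, -0.32 for EIF4A2 snoRNA. Leaving out 1 library at a time, log2 differences that changed sign ranged from -0.34 to 0.52 for CCDC200, from -0.34 to 0.71 for ELAVL1 3'UTR, from -0.59 to 0.27 for NORAD, from -0.13 to 1.05 for ZFAS1, from -0.44 to 0.28 for SNORD3A snoRNA, from -0.64 to 0.12 for SNORD3C snoRNA, from -0.56 to 0.18 for SNORD3B-2 snoRNA, from -0.13 to 0.84 for SNORD3B-1 snoRNA, from -0.11 to 0.87 for MT-RNR1, from -0.94 to 0.23 for MT-TQ, from -0.29 to 0.95 for RPS12 snoRNA, from -0.20 to 0.53 for RPL7A snoRNA, from -0.29 to 0.75 for EIF5AL1 3'UTR, from -0.85 to 0.0703 for AFP CDS, from -0.61 to 0.10 for AFP 3'UTR, from -0.75 to 0.10 for CTNNB1 3'UTR, from -1.11 to 0.11 for NCL 3'UTR, from -0.13 to 0.53 for DDX17 3'UTR. Shares that did so ranged from -0.13 to 0.075 points for CDS, from -0.12 to 1.80 points for TE, from -0.84 to 7.71 points for ncRNA, from -1.02 to 1.41 points for snoRNA.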
